A study of Mus musculus with 22 samples.

Results

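Colec12, Sncg, Slitrk6, C1qtnf3, Ism1 and Ehd3 are 6 of the 33984 genes counted in adult mouse choroid plexus (ChP), and they were picked because their difference between pools labelled Cre-Tat and vehicle was larger in the fourth ventricle (4V) than in the lateral ventricles (LV). The genes were thus chosen by the counts of those pools, which are given here as a description, without a test. The comparison behind the choice did not contrast the groups of a second mouse model, sequenced in another run, and there the genes were tested. The choice was made with earlier results of these data known, so independence of that test from it cannot be claimed. In the conditional experiment, adult Otx2 lox/lox mice (strain labelled S129) received a cell-permeable recombinase, Cre-Tat, or vehicle into the lateral ventricles, so that all 4 of its groups carry the floxed allele, and LV and 4V ChP were dissected apart. In the constitutive experiment (strain labelled B6D2), 4V ChP came from wildtype (WT) mice, from mice labelled Otx2 (+/-), in which a GFP allele replaces 1 Otx2 copy, and from mice labelled Otx2 (+/AA). Each of the 7 groups had 2 pools of several mice, A and B, so that the spread between pools is not the spread between mice.

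The choroid plexus is a secretory epithelium over a stroma of fibroblasts, vessels and macrophages, and it makes cerebrospinal fluid and the blood-fluid barrier. OTX2 is a homeodomain transcription factor required for its development and still present in the adult. The 6 genes have different roles. Colec12 encodes a scavenger receptor of the collectin family, Slitrk6 a leucine-rich-repeat membrane protein, C1qtnf3 and Ism1 secreted proteins, Ehd3 an ATPase of endosome recycling, and Sncg the small cytosolic protein gamma-synuclein.

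The genes lie apart in the genome (GENCODE vM21, mouse build GRCm38). Ism1 spans chr2:139678178-139758581, C1qtnf3 chr15:10952332-10980150 and Ehd3 chr17:73804134-73832094, all on the forward strand, as is Colec12. Sncg (chr14:34370274-34374789) and Slitrk6 (chr14:110748580-110755149) are on the reverse strand of the chromosome that holds Otx2, 14.3 and 62.1 megabases from it. None of the counted transcripts shares exon bases with another annotated gene. Colec12 was counted on 1 of its 4 annotated transcripts, and GENCODE types it as nonsense-mediated decay, not as protein coding. C1qtnf3 has 2 counted transcripts that share reads, with near-equal counts (226 and 185 on the longer, 205 and 160 on the shorter in the 4V pools labelled Cre-Tat), and the longer is used here.

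Upstream sequence is shown for 3 of the genes, up to 250 bases before the first annotated base of the gene (RefSeq, GRCm38.p6). RefSeq windows matched 4 of the 6 genes, and that of Ehd3 lies within an annotated exon and is not printed. The strand shown is that of the gene, at chr14:34374790-34374919 for Sncg, chr14:110755150-110755399 for Slitrk6 and chr15:10952082-10952331 for C1qtnf3. Capitals mark TAATCT (read here on the opposite strand as AGATTA) or TATAAA.
Sncg: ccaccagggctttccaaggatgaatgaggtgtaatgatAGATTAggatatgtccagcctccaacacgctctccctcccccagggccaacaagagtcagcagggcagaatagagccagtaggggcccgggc
Slitrk6: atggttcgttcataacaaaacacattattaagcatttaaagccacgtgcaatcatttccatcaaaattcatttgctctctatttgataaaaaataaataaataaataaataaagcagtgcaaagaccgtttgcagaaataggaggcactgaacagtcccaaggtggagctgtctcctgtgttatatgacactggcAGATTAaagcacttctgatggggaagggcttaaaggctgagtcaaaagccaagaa
C1qtnf3: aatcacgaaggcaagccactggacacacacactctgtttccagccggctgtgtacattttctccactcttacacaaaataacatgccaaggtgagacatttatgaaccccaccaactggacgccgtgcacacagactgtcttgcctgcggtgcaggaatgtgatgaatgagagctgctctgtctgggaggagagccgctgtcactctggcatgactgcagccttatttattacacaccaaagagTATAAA
The letters TAATCC, a core motif bound by OTX-type homeodomains, occur on neither strand of these 3 windows. They occur in 6.25% of all 32851 RefSeq windows of 250 bases and in 3.43% of those cut to 130 bases, the length used for Sncg. The related TAATCT is present once in Sncg and once in Slitrk6, against 4.34% of all windows of 130 bases and 7.31% of those of 250 bases. C1qtnf3 ends in TATAAA, found in 12.4% of windows of 250 bases. These matches are letters in a window and were not tested as sites.

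Some facts of the libraries bear on every value. Pools had 10558002 to 24833188 counts over genes, the lowest in 4V pool B labelled vehicle. Of the 16 conditional files, 14 were attached to another pool than the one whose library number they carry, and files were joined by that number. The 2 runs of a library then differed by no more than sampling noise (chi-square over degrees of freedom 1.0001 to 1.0412 in 8 pairs), whereas files attached to 1 pool gave 21.1 to 37.3. The position genes of the hindbrain (5 Hox genes) summed to 2.82 to 3.30 CPM (counts scaled to library size after TMM) in the conditional 4V pools and to at most 0.224 CPM in the LV pools, and the 4 forebrain position genes to 8.07 to 10.2 CPM in LV and 2.35 to 6.52 CPM in 4V.

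Counts over the whole transcript of the targeted gene went against the labels. The study, which counted reads of a single Otx2 exon, reports a decrease in both ventricles with Cre-Tat and in the heterozygotes. Its list of genes downregulated in all of these comparisons includes Otx2. The study also tested samples by qPCR for low Otx2 with Cre-Tat, and cites earlier work for reduced OTX2 protein in both models. It also lists Slitrk6 among the genes upregulated in 4V with Cre-Tat. Sncg is listed by the study as upregulated in both ventricles with Cre-Tat and in the heterozygotes. Otx2 stood at 376.7 and 459.0 CPM in the LV pools labelled vehicle and at 1208 and 1001 CPM in those labelled Cre-Tat. In 4V it stood at 376.9 and 384.3 CPM in the pools labelled vehicle and at 1174 and 1194 CPM in those labelled Cre-Tat. The log2 differences were 1.41 (SE 0.18, adjusted p = 0.00051) in LV and 1.64 (SE 0.15, adjusted p = 1.2e-06) in 4V, by edgeR (quasi-likelihood, Benjamini-Hochberg). In the constitutive run it was also higher in the pools labelled Otx2 (+/-), by 1.53 (SE 0.14, adjusted p = 0.0011, same edgeR test). The noncoding transcript annotated for Otx2 had 804 to 1781 counts in the conditional pools labelled vehicle and 3216 to 4053 in those labelled Cre-Tat, but 1254 and 972 in WT and 939 and 692 in Otx2 (+/-). Ttr, the transthyretin of the epithelium, was lower by log2 differences of -1.18 (adjusted p = 0.0148) in 4V with Cre-Tat and -0.79 (adjusted p = 0.0395) in Otx2 (+/-), and -0.66 (adjusted p = 0.0773) in LV did not pass, by the same edgeR test. Counts over a whole transcript do not separate the alleles, and exons were not analysed here, so every direction below is between pools as labelled.

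In the conditional 4V pools all 6 genes were higher in both pools labelled Cre-Tat than in both labelled vehicle, as were 25.0% of the 14550 genes tested. In LV this held for 5 of the 6, as for 21.9% of 15002 genes, and C1qtnf3 overlapped. The median log2 difference of the 6 was 3.09 in 4V and 0.82 in LV, beside 0.006 and 0.004 over all genes tested. All 6 passed the filter on low counts in each comparison, but Slitrk6 and C1qtnf3 did so in 4V through the pools labelled Cre-Tat alone, where they are high.

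Colec12, the scavenger receptor, was the most abundant of the 6 per kilobase in both vehicle groups. It stood at 146.9 and 162.2 CPM in the LV pools labelled vehicle and at 266.9 and 250.2 CPM in those labelled Cre-Tat. In 4V it stood at 94.8 and 99.8 CPM with vehicle and at 370.0 and 374.9 CPM with Cre-Tat, so that the 4V pools were below the LV pools under the vehicle label and above them under the Cre-Tat label. The fitted log2 differences were 0.75 (SE 0.16) in LV and 1.94 (SE 0.14) in 4V.

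Slitrk6, whose family acts at synapses and in neurite growth, was near the limit of detection in 4V with vehicle. Its pools A and B had 1 and 6 counts there, against 179 and 133 counts with Cre-Tat, a ratio of 28.3 with an exact 95% counting interval of 13.6 to 71.0 that covers counting error only. In LV it had 15 and 28 counts with vehicle and 47 and 44 with Cre-Tat, a ratio of 1.86 (1.28 to 2.74). Its log2 difference in 4V, 4.79 (SE 0.47), was 6.66 without vehicle pool B and 3.89 without vehicle pool A.

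C1qtnf3, a secreted protein of the C1q and tumour necrosis factor family, showed the widest gap between the ventricles. It had 8 and 8 counts in the 4V pools with vehicle and 226 and 185 with Cre-Tat, a ratio of 16.3 (9.93 to 28.8). The LV pools had 13 and 6 counts with vehicle and 14 and 1 with Cre-Tat, a ratio of 0.694 (0.328 to 1.44), so that no direction can be read there. The fitted LV value of -0.55 (SE 0.90) was -3.16 without Cre-Tat pool A and 0.29 without Cre-Tat pool B.

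Ism1, the secreted isthmin 1, stood at 4.62 and 6.32 CPM in the LV pools with vehicle and at 9.38 and 13.4 CPM with Cre-Tat. In 4V it stood at 2.03 and 2.89 CPM with vehicle and at 14 and 15.5 CPM with Cre-Tat. Both 4V pools with vehicle were below both LV pools, and the log2 differences were 1.06 (SE 0.24) in LV and 2.61 (SE 0.23) in 4V.

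Sncg stood at 5.23 and 3.69 CPM in the LV pools with vehicle and at 15.3 and 16.6 CPM with Cre-Tat. In 4V it stood at 4.63 and 2.98 CPM with vehicle and at 50.4 and 41.6 CPM with Cre-Tat. The vehicle pools of the ventricles overlapped while the Cre-Tat pools did not, with log2 differences of 1.84 (SE 0.22) in LV and 3.57 (SE 0.21) in 4V.

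Ehd3 had the smallest difference of the 6 in 4V. It stood at 31 and 35.5 CPM with vehicle and 39.5 and 42.5 CPM with Cre-Tat in LV, and at 33.6 and 37.4 CPM and 77.4 and 84.4 CPM in 4V. The vehicle pools of both ventricles overlapped, and the log2 differences were 0.30 (SE 0.16) in LV and 1.20 (SE 0.14) in 4V.

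**Figure D1:**
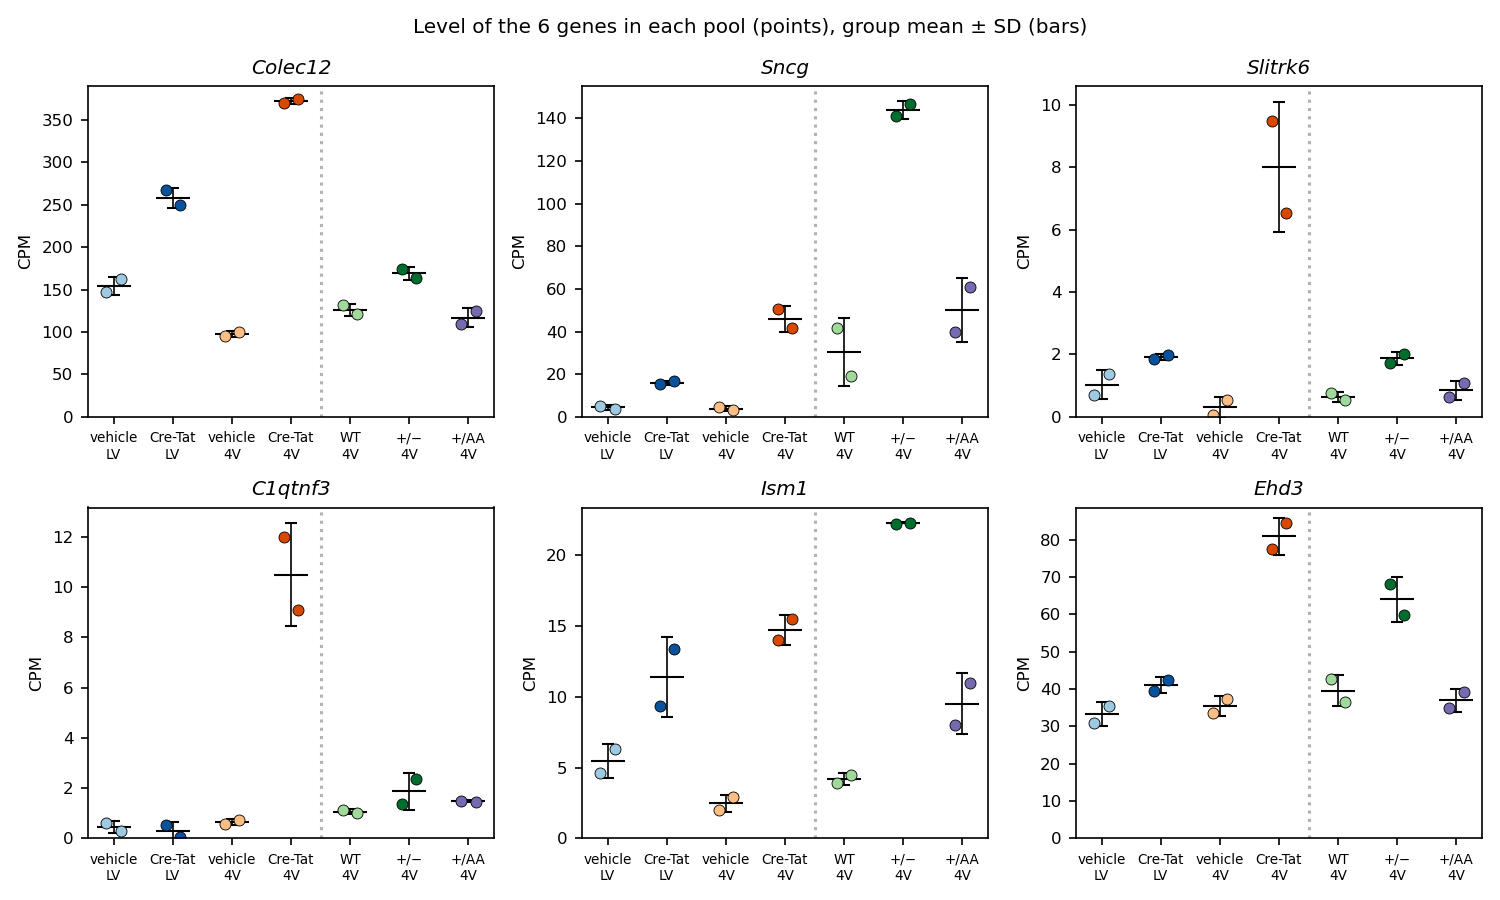
Level of each gene in CPM on a linear axis from 0, 1 panel a gene, with 1 point a pool and bars for the group mean ± SD (n = 2 pools). The dotted line parts the conditional from the constitutive pools, which were scaled separately, and the 4V pools labelled Cre-Tat are the highest of the conditional pools in all 6 panels.

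The difference between the ventricles, 4V minus LV on the log2 scale, was 4.55 (SE 0.87) for C1qtnf3, 3.90 (SE 0.72) for Slitrk6, 1.74 (SE 0.31) for Sncg, 1.54 (SE 0.36) for Ism1, 1.19 (SE 0.19) for Colec12 and 0.89 (SE 0.20) for Ehd3. These are the values for which the genes were picked. Across all genes 1 of 15565 (0.00642%) passed an adjusted p of 0.05 for this difference by the edgeR test, 416 (2.67%) had an unadjusted p under 0.05, and DESeq2's Wald test called 5. These counts are background, and nothing is read from them about the 6.

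The constitutive run asks whether the same genes differ in 4V ChP of another Otx2 model. Both pools labelled Otx2 (+/-) were above both WT pools for 6 of the 6 genes, as for 23.9% of the 14573 genes tested. Past an adjusted p of 0.05 were 3 of the 6, all higher, against 1.78% of all genes tested. The median log2 difference of the 6 was 1.17, beside -0.001 over all genes. For the difference of the response between the models, 1.64% of 15327 genes passed.

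Ism1 had the clearest difference. It stood at 3.91 and 4.48 CPM in the WT pools and at 22.2 and 22.3 CPM in those labelled Otx2 (+/-), a log2 difference of 2.41 (SE 0.17, adjusted p = 0.00041, edgeR quasi-likelihood, Benjamini-Hochberg). Sncg stood at 41.9 and 19.3 CPM in WT and at 141.0 and 146.8 CPM in Otx2 (+/-), a log2 difference of 2.23 (SE 0.29, adjusted p = 0.0046, same edgeR test). The 2 WT pools of Sncg were far apart, and the difference was 2.90 without WT pool A and 1.76 without WT pool B. Ehd3 stood at 42.6 and 36.6 CPM in WT and at 68.2 and 59.8 CPM in Otx2 (+/-), a log2 difference of 0.69 (SE 0.13, adjusted p = 0.025, same edgeR test). This call was lost without WT pool B (adjusted p = 0.055) or without Otx2 (+/-) pool A (adjusted p = 0.061), and with all transcripts of a gene summed (adjusted p = 0.055), in the same edgeR test.

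The other three did not pass. Colec12 stood at 131.3 and 121.3 CPM in WT and at 174.8 and 163.8 CPM in Otx2 (+/-), a log2 difference of 0.42 (SE 0.11, adjusted p = 0.093, the edgeR test). Slitrk6 had 14 and 9 counts in WT and 33 and 38 in Otx2 (+/-), a ratio of 2.91 (exact counting interval 1.8 to 4.88) and a log2 difference of 1.53 (SE 0.40, adjusted p = 0.085, same edgeR test). C1qtnf3 had 21 and 17 counts in WT and 26 and 45 in Otx2 (+/-), a ratio of 1.76 (1.17 to 2.68) and a log2 difference of 0.81 (SE 0.41, adjusted p = 0.33, same edgeR test) that was 1.16 without Otx2 (+/-) pool A and 0.36 without pool B.

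**Figure D2:**
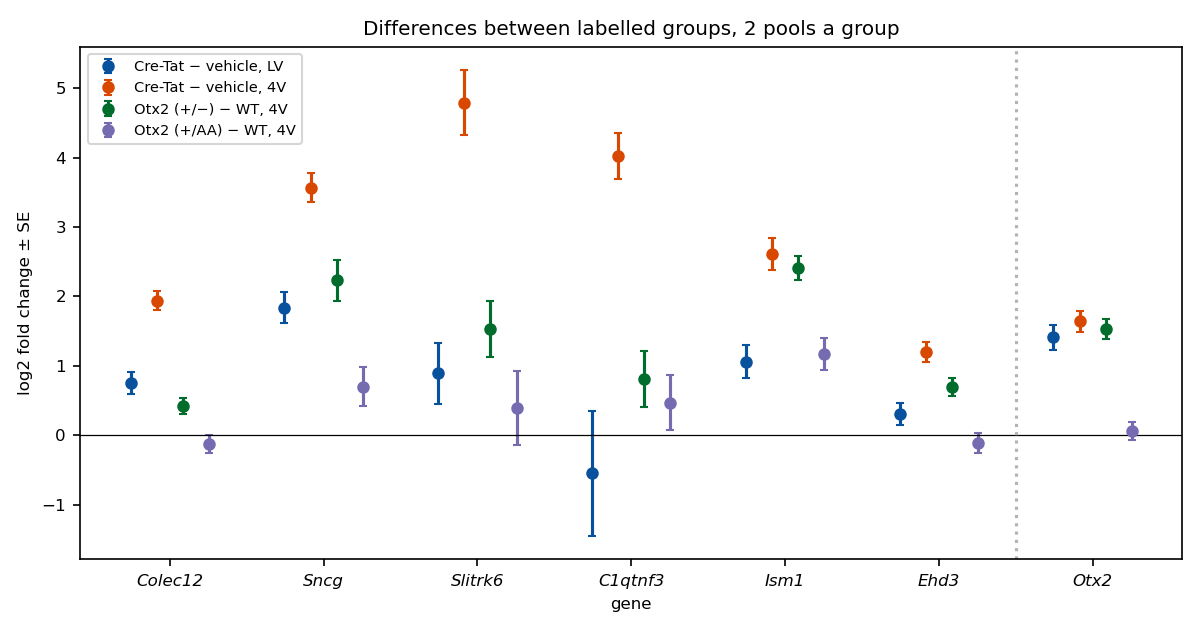
Fitted log2 fold change ± SE (edgeR, 2 pools a group) of the 6 genes and of Otx2 in the 4 comparisons. The 4V pools labelled Cre-Tat give the largest value for each of the 6 genes, from 1.20 for Ehd3 to 4.79 for Slitrk6, while Otx2 has like values in the first 3 comparisons and 0.06 in Otx2 (+/AA).

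The Otx2 (+/AA) pools were set against the same WT pools, so the 2 comparisons are not independent. None of the 6 passed an adjusted p of 0.05 (0.172% of 14494 genes passed as higher) by the edgeR test. By the same test 2 had an unadjusted p under 0.05, as did 8.91% of genes, and DESeq2 called 1, Ism1. Both pools were above both WT pools for 2 of the 6, as for 19.4% of genes. Ism1 stood at 7.98 and 11 CPM, a log2 difference from WT of 1.17 (SE 0.23, adjusted p = 0.061, the edgeR test). This difference was 1.08 without WT pool A, 1.26 without WT pool B, 1.39 without Otx2 (+/AA) pool A and 0.92 without Otx2 (+/AA) pool B. Of 8 alternative settings 3 called Ism1: DESeq2 (adjusted p = 0.028), and edgeR with no filter (0.00015) or a replicate block of pool letters (5.5e-05). Among the others, it did not pass with summed transcripts (adjusted p = 0.16) or scaling to total counts (0.075), both by edgeR. Sncg stood at 39.7 and 60.7 CPM and overlapped WT, with a log2 difference of 0.70 (SE 0.28, adjusted p = 0.44, same edgeR test) that was 1.38 (adjusted p = 7.3e-07) without WT pool A, 0.24 (adjusted p = 0.84) without WT pool B and 0.37 (adjusted p = 0.7) without Otx2 (+/AA) pool B. It also passed with no filter on low counts (adjusted p = 0.00061) and when pool letters formed a replicate block (1.4e-05), both by edgeR. The other four had log2 differences of 0.47 (SE 0.40) for C1qtnf3, 0.39 (SE 0.53) for Slitrk6, -0.11 (SE 0.14) for Ehd3 and -0.12 (SE 0.13) for Colec12.

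The 6 genes did not rank alike within each experiment. In the conditional pools the order for Colec12, Slitrk6 and Ism1 was Cre-Tat 4V, Cre-Tat LV, vehicle LV and vehicle 4V, with no overlap between neighbours. Sncg had the same order with overlapping vehicle groups. Ehd3 had both vehicle groups overlapping at the bottom, and for C1qtnf3 the 3 groups other than Cre-Tat 4V were not separated in order. In the constitutive pools Otx2 (+/-) came first for all 6 genes, and only Ism1 had Otx2 (+/AA) apart from both of its neighbours.

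Relatives of the 6 genes were counted from 6 family lists with 65 other genes. In 4V with Cre-Tat, 12 of the 40 relatives tested passed an adjusted p of 0.05 (the edgeR test), 4 higher and 8 lower, against 10.7% of all genes. In LV 3 of 42 passed (3.24% of all genes), in Otx2 (+/-) 5 of 47 (3.53%) and in Otx2 (+/AA) 1 of 45 (0.345%).

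The C1q and tumour necrosis factor family held the nearest parallel. C1ql3, a secreted synaptic organiser, stood at 5 and 4.69 CPM in 4V with vehicle and at 26.8 and 25.5 CPM with Cre-Tat, a log2 difference of 2.43 (SE 0.19, adjusted p = 9.5e-08, the edgeR test). In LV its log2 difference was 1.06 (SE 0.33, adjusted p = 0.12, same edgeR test). The 4V minus LV difference was 1.37 (SE 0.33, adjusted p = 0.75, edgeR), so neither passed. C1ql3 rose from 4.6 and 3.44 CPM in WT to 23 and 24.9 CPM in Otx2 (+/-), by 2.57 (SE 0.19, adjusted p = 0.00043, same edgeR test). In Otx2 (+/AA) it stood at 9.53 and 9.89 CPM, a log2 difference of 1.26 (SE 0.22, adjusted p = 0.036, same edgeR test). That last call was lost without either Otx2 (+/AA) pool (adjusted p = 0.095 without A and 0.067 without B, edgeR). C1qtnf5 was lower in 4V with Cre-Tat, at 107.4 and 101.6 CPM against 165.5 and 151.4 CPM with vehicle. Its log2 difference was -0.60 (SE 0.13, adjusted p = 0.0066, same edgeR test). C1qtnf12 fell, by 1.24 in 4V with Cre-Tat (adjusted p = 0.00015), by 0.74 in LV (adjusted p = 0.044) and by 1.00 in Otx2 (+/-) (adjusted p = 0.029) on the log2 scale in the same edgeR test. The LV call was lost without Cre-Tat pool A, vehicle pool A or vehicle pool B (adjusted p = 0.12, 0.13 and 0.091, edgeR) and with scaling to total counts (0.14), and the Otx2 (+/-) call without Otx2 (+/-) pool A (adjusted p = 0.054, edgeR). C1qa and C1qb, complement genes of macrophages, were higher with Cre-Tat in 4V by 0.84 and 0.82 (adjusted p = 0.013 and 0.018, edgeR), calls that were lost without Cre-Tat pool A (adjusted p = 0.14 and 0.18, edgeR). In LV they were higher by 1.06 and 0.94 (adjusted p = 0.0041 and 0.016, edgeR), and the C1qb call was lost without vehicle pool A (adjusted p = 0.13, edgeR).

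Among isthmins and thrombospondin-repeat proteins 4 of 8 tested passed in 4V with Cre-Tat and all 4 were lower, while Ism1 was higher. The 4 lower genes included the matrix gene Thbs2 (log2 difference -0.76, SE 0.14, adjusted p = 0.0018) and Thsd7b (-1.07, SE 0.17, adjusted p = 0.00044) in the edgeR test. In Otx2 (+/-) 3 of 10 passed and all were higher. Ism2, the closest relative of Ism1, had 0 and 9 counts in WT and 63 and 51 in Otx2 (+/-) (log2 difference 3.53, SE 0.73, adjusted p = 0.036, edgeR), but DESeq2 gave an adjusted p of 0.47. Spon1 had 31 and 16 counts in 4V with vehicle and 14 and 6 with Cre-Tat, and 17 and 23 in WT and 83 and 67 in Otx2 (+/-), with log2 differences of -1.84 (adjusted p = 0.027) and 1.81 (adjusted p = 0.02) in edgeR. In the Otx2 (+/-) comparison the calls of Ism2, Spon1 and Thsd7a were lost without Otx2 (+/-) pool A (adjusted p = 0.063, 0.086 and 0.11, edgeR), and in 4V with Cre-Tat that of Spon1 was lost without vehicle pool A (0.34) or Cre-Tat pool B (0.19).

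The remaining families held few calls. Of the EHD proteins and recycling partners 2 of 14 passed in 4V with Cre-Tat, the endocytic adaptor Pacsin2 higher (log2 difference 0.53, adjusted p = 0.015) and Ehbp1 lower (-0.48, adjusted p = 0.025), both by the edgeR test, and both calls were lost without vehicle pool A (adjusted p = 0.25 and 0.17, edgeR) or vehicle pool B (0.05 and 0.13), and that of Ehbp1 also without Cre-Tat pool A (0.13). The paralogs Ehd1, Ehd2 and Ehd4 had log2 differences of 0.21, 0.60 and 0.04 there, none past the threshold. Scara5, a class A scavenger receptor, was the only one of 4 relatives of Colec12 to pass there, and it was lower by a log2 difference of -0.64 (SE 0.15, adjusted p = 0.0085, edgeR). No relative in the SLITRK list (3 tested at most) passed in any of the 4 comparisons by edgeR, and none had an unadjusted p under 0.05.

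**Figure D3:**
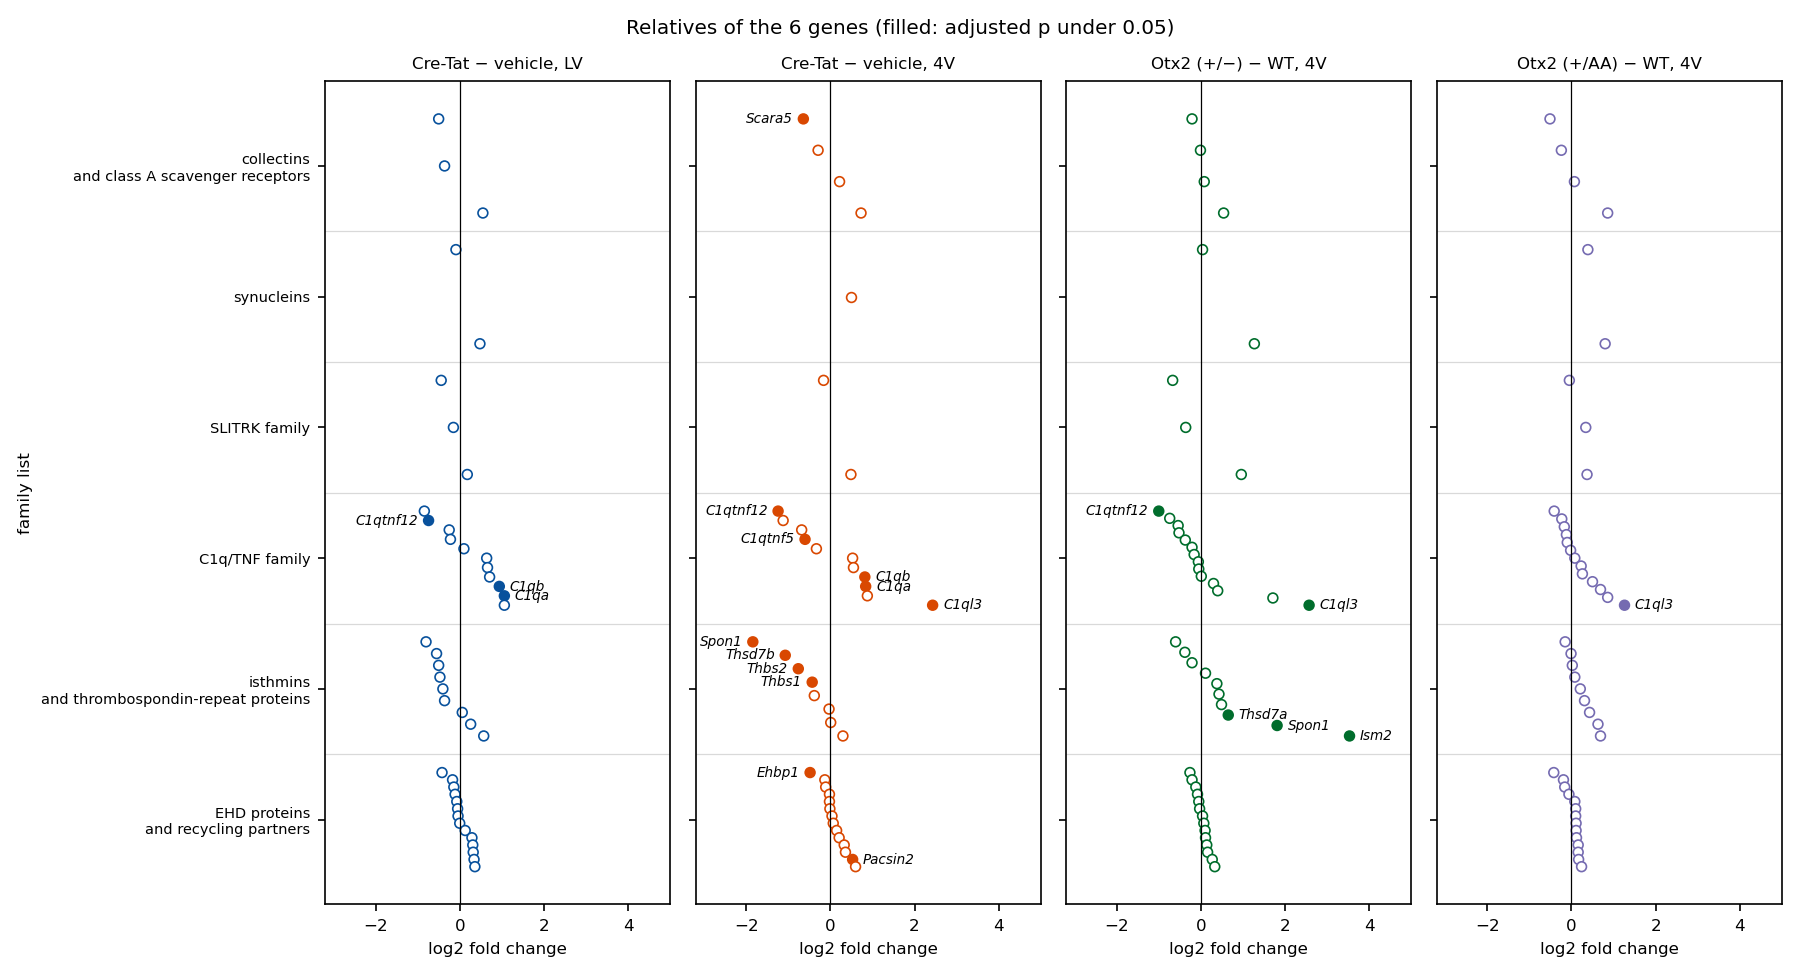
Fitted log2 fold change of each tested relative of the 6 genes, by family list (rows) and comparison (panels), with filled points for an adjusted p under 0.05 in edgeR. C1ql3 is the only relative filled in 3 panels on the right of 0, at 2.43, 2.57 and 1.26.

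Genes whose levels most resembled the mean profile of the 6 over the 8 conditional pools were Prex1 (r = 0.980), Jam2 (0.976), Akr1b10 (0.975), Dio1 (0.975), Arrdc2 (0.971), Ccdc78 (0.969), F3 (0.967), Arhgap29 (0.966), Mbnl2 (0.965) and D7Ertd443e (0.964). These are Pearson correlations of log2 CPM across pools that share 4 group means, and they describe likeness only. In levels the likeness was not of size, since F3, tissue factor, had means of 36.9, 71.6, 32.9 and 133.3 CPM in vehicle LV, Cre-Tat LV, vehicle 4V and Cre-Tat 4V while Dio1, a deiodinase, had 0.0243, 0.266, 0 and 0.950 CPM. The single gene most like each was Megf9 for Colec12 (r = 0.992), Rcor2 for Sncg (0.997), Cfap58 for Slitrk6 (0.964), Zscan30 for C1qtnf3 (0.969), Rapgef3 for Ism1 (0.987) and Vti1a for Ehd3 (0.984). In 4V with Cre-Tat, Megf9, Rcor2 and Rapgef3 passed the threshold by edgeR, at log2 differences of 1.5, 1.52 and 1.28. Cfap58, Zscan30 and Vti1a did not pass there, at 0.91, 0.45 and 0.39. Among the 6 chosen genes, C1qtnf3 was least like the others, with r from 0.37 (Ism1) to 0.84 (Ehd3), against 0.73 to 0.97 for pairs without it.

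Markers of some cell types also differed between the labels. The 10 epithelial markers summed to 180686 and 213261 CPM in 4V with vehicle and to 85560 and 96488 CPM with Cre-Tat, with 9 of 10 lower and Otx2 higher past the threshold (edgeR). In LV they summed to 216927 to 226245 CPM with vehicle and 121264 to 161466 CPM with Cre-Tat. There 4 of 10 were lower and Otx2 higher past the threshold. In Otx2 (+/-) they summed to 129231 to 136682 CPM, against 194930 to 204174 CPM in WT. The 9 fibroblast and meningeal markers summed to 714.0 to 809.0 CPM in 4V with vehicle and 1338.0 to 1464.6 CPM with Cre-Tat, with Ptgds and Col1a2 higher and Pdgfra lower past the threshold, and in LV to 898.1 to 927.3 and 1032.0 to 1385.3 CPM with the same 3 calls. In Otx2 (+/-) they summed to 1314.0 to 1387.7 CPM against 1020.3 to 1068.4 CPM in WT, with Col3a1 and Col1a2 higher past the threshold. The 7 macrophage markers summed to 41.4 to 43.4 CPM with vehicle and 63.4 to 86.7 CPM with Cre-Tat in 4V, and 5 of 7 passed as higher. In LV they summed to 57.5 to 64.4 CPM with vehicle and 93.1 to 102.6 CPM with Cre-Tat, where 7 of 7 were higher in both pools and 2 passed. In Otx2 (+/-) the macrophage list summed to 89.3 to 97.9 CPM against 85.5 to 85.9 CPM in WT. There 2 of 7 were higher and 2 lower in both pools, and Mrc1 passed as higher. The neuronal list summed to 12.5 to 24.3 CPM in 4V with vehicle and to 11.8 to 12.3 CPM with Cre-Tat (Syt1 lower past the threshold). In LV it went the other way, from 18.4 to 19.2 CPM with vehicle to 23.8 to 26.4 CPM with Cre-Tat (Snap25 higher past the threshold). Astrocytes and ependyma summed in 4V to 113.1 to 134.4 CPM with vehicle and 119.9 to 125.2 CPM with Cre-Tat. There Slc1a3, Gfap and Aqp4 were higher and Aldh1l1 lower past the threshold. In LV the list summed to 89.5 to 91.8 and 87.5 to 96.4 CPM, with Aqp4 higher and Aldh1l1 lower past the threshold. In Otx2 (+/-) that list summed to 175.1 to 245.4 CPM against 165.4 to 173.7 CPM in WT, with Slc1a3 and Aqp4 higher past the threshold. Oligodendrocytes summed in 4V to 32.0 to 37.2 CPM with vehicle and 38.1 to 39.4 CPM with Cre-Tat (Cnp higher past the threshold), and erythrocytes to 0.361 to 0.507 and 0.848 to 1.77 CPM with no marker tested. In LV oligodendrocytes summed to 37.0 to 62.6 CPM with vehicle and 62.7 to 72.9 CPM with Cre-Tat, with Cnp again higher past the threshold. The ratio of summed markers stayed between 0.963 and 1.11 for endothelial and mural cells in the 4 comparisons. Of their markers only Plvap, an endothelial one, passed the threshold, as higher in 4V with Cre-Tat (edgeR). In these bulk samples a change in the number of cells of a type and in RNA per cell cannot be told apart, and the part of these cells in the values of the 6 genes was not tested.

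**Figure D4:**
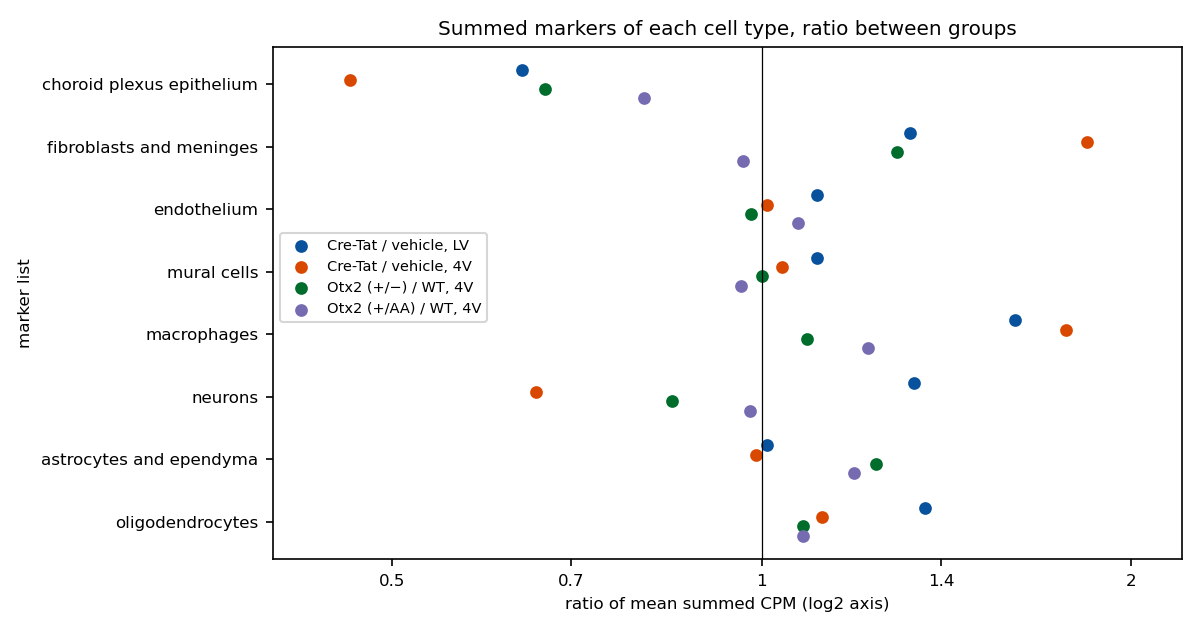
Ratio of mean summed marker CPM between groups (log2 axis) for 8 marker lists in the 4 comparisons, 1 point a comparison and no error bar. The epithelial list is below 1 in all 4, at 0.462 for Cre-Tat in 4V, where the fibroblast list is at 1.84 and the macrophage list at 1.77. A sum is weighted to abundant markers. The median log2 difference of the markers tested there was -0.93 for epithelium, 0.21 for fibroblasts and 0.84 for macrophages.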

How the data were processed

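RNA of pooled mouse choroid plexus was sequenced in 14 pools, 8 of them in 2 runs. The deposited counts are read counts per transcript, made by the authors with Bowtie 0.12.9, SAMtools and HTSeq 0.5.3 on mm10, per the labels. The labels give ribosomal depletion with a strand-specific kit, whereas the study's methods give poly(A) selection. Runs of a library were summed, and each gene took its transcript with most counts (GENCODE vM21, 82807 of 95533 transcripts matched, 89.5% of counts).

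Groups of 2 pools were compared with edgeR 4.0.16 (R 4.3.3; filterByExpr, TMM, quasi-likelihood test, Benjamini-Hochberg over all genes tested), each comparison on its own 4 pools and the differences of responses on 8. CPM was scaled separately for each experiment. The step was tested on simulated data. Alternatives were DESeq2 1.42.0, other scalings and filters, a replicate block, summed transcripts, files as attached and leaving out each pool. Named were the 6 genes, Otx2, relatives past the threshold (up to 4 a list by smallest p, with C1qb beside them) and the genes most alike by correlation (log2 CPM, prior count 2). Markers of epithelium, fibroblasts, endothelium, mural cells, macrophages, neurons, astrocytes and ependyma, oligodendrocytes, erythrocytes and ventricle position were summed. Relatives of Sncg are not reported singly here. The members and lists were chosen with earlier results of these data known. An exact permutation test of 2 against 2 pools cannot go below p = 0.333, so none is given. The study's methods give separate sets of mice for the conditional pools of a group, and do not say whether duplicate Otx2 (+/-) or WT pools came from separate mice, so p-values there may measure technical spread.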

Additional observations from a re-analysis of the deposited data

Results flagged for a closer look

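The response differed between the conditional and the constitutive model in 4V (Cre-Tat minus vehicle, less Otx2 (+/-) minus WT, on the log2 scale) for 3 relatives of the 6 genes. C1qa differed by 1.20 (SE 0.27, adjusted p = 0.044), Spon1 by -3.66 (SE 0.61, adjusted p = 0.01) and Thsd7b by -1.19 (adjusted p under the threshold only before rounding) by the edgeR test. Without vehicle pool A none of these 3 relatives passed (adjusted p = 0.14 for C1qa, 0.091 for Spon1 and 0.14 for Thsd7b, edgeR). C1qa was also lost without any other pool except Cre-Tat pool B (adjusted p = 0.053 to 0.2, edgeR), and Thsd7b without vehicle pool B, Cre-Tat pool A, WT pool B or Otx2 (+/-) pool A (0.14 to 0.21). For Colec12 (1.51, SE 0.17), C1qtnf3 (3.20, SE 0.53) and Slitrk6 (3.24, SE 0.74; 2.33 without vehicle pool A and 5.13 without vehicle pool B) the same difference is only a description, since the conditional pools chose these genes. The models also differ in strain and sequencing run, which cannot be told apart from the model.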

How the results depend on the processing

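The calls rest on 2 pools a group, and low counts limit Slitrk6 and C1qtnf3. Joined as attached, the files gave other signs, at log2 differences in LV of -0.26 for Colec12, -1.53 for Sncg, -0.31 for Ism1, -2.05 for Slitrk6, -0.72 for Ehd3, -0.01 for Otx2 and 0.28 for C1qtnf12. In 4V they gave -0.42 for Colec12, -1.42 for Sncg, -1.39 for Slitrk6, -5.17 for C1qtnf3, -0.14 for Ism1, -0.79 for Ehd3, -0.29 for Otx2, -2.95 for C1ql3, -0.03 for Pacsin2, 0.39 for Scara5, 0.25 for C1qtnf5, 0.96 for C1qtnf12, 1.22 for Thsd7b, 0.78 for Thbs1, 0.67 for Thbs2, 0.73 for Spon1 and 0.03 for Ehbp1, and between ventricles -1.55 for C1qtnf3, -0.15 for Colec12, -0.06 for Ehd3 and -0.27 for Otx2. That join called 6709 genes in LV, 8742 in 4V and 5258 between ventricles, since it mixes libraries.

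Of all genes, 486 were called in LV (321 to 737 leaving out a pool), 1554 in 4V (905 to 1665), 515 in Otx2 (+/-) (402 to 881), 50 in Otx2 (+/AA) (35 to 382), 1 between ventricles (0 to 3) and 252 between models (80 to 246). Calls of the 6 genes are counted only for the comparisons that did not choose them. Leaving out a pool, 2 to 3 were called in Otx2 (+/-) and 0 to 2 in Otx2 (+/AA). Without a filter the counts were 874 in LV, 390 in Otx2 (+/AA), with 2 of the 6 genes, 31 between ventricles and 627 between models. DESeq2 called 122 in Otx2 (+/AA), with 1 of the 6, 5 between ventricles and 377 between models. Summed transcripts gave 22 in Otx2 (+/AA), 0 between ventricles and 166 between models, the fit over all groups of a run 18 in Otx2 (+/AA), and a mean count above 10 gave 0 between ventricles. Scaling to total counts moved the median of all genes by 0.15 in 4V and 0.17 in LV and the split of calls to 1316 higher and 426 lower in 4V (829 and 725 with TMM) and 396 and 48 in LV (331 and 155). The cause of these shifts was not tested.

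The pool letters carry no stated pairing. Deviations of same-letter pools correlated at -0.128 in LV, 0.15 in 4V, 0.359 in Otx2 (+/-) and 0.077 in Otx2 (+/AA). With the letter as a replicate block 3114 genes were called in 4V, 2539 in Otx2 (+/-), with 5 of the 6 genes, 549 in Otx2 (+/AA), with 2 of the 6, 0 between ventricles and 1048 between models. Crossed letters in LV, chosen after seeing the data, called 1012 genes.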
